A study of Mus musculus with 4 samples.

Results

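The genes described here are factors of cushion and valve mesenchyme and genes of extracellular matrix: 36 genes chosen by name from a fixed list. That list was chosen with earlier results of these data known. Each of the 36 symbols matched 1 row of the deposited table, which holds 38293 genes. They comprise 8 factors of cushion and valve mesenchyme, 7 fibrillar collagens, 6 other collagens, 6 genes of hyaluronan and proteoglycans, and 9 matrix glycoproteins. Of these, 34 were read often enough to be tested, among 13711 genes tested in all. Msx1 and Penk were not.

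RNA was sequenced from ventricles of single mouse embryos at E12.5 (mid-gestation), all of litter 6, on a C57BL/6 background, with atria and the valve region removed and embryos matched by somite number. All 4 embryos carried the floxed Hif1alpha alleles in homozygous form (Hif1alpha flox/flox). The 2 libraries labelled conditional knockout (cKO, replicates 2 and 3) also carried 1 allele of Nkx2.5Cre, which expresses the recombinase from the locus of a cardiac transcription factor, and the 2 control libraries (replicates 2 and 3) were Nkx2.5+/+. No embryo carried Cre without floxed alleles, so loss of Hif1alpha, the presence of Cre and the changed Nkx2.5 allele cannot be told apart. Values are library-scaled CPM, reads assigned to a gene divided by the total assigned. Runs of 4 values are always given in the order cKO replicate 2, cKO replicate 3, control replicate 2, control replicate 3.

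Endocardial cushions form where endocardial cells leave their sheet and enter a swollen matrix of hyaluronan and versican between endocardium and myocardium. The mesenchymal cells that result carry transcription factors such as Sox9, Twist1 and Msx1, and later lay down collagens, periostin, tenascin and elastic fibres as the cushions become valves and septa. The same matrix genes are also expressed by epicardium-derived cells, fibroblasts, endothelium and, for cartilage-type collagens and aggrecan, by skeletal cells. The dissection removed the valve region, and which cells of the remaining tissue gave these reads was not measured. In such bulk RNA, fewer cells of a type and less RNA per cell cannot be told apart.

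The libraries held 9980051, 19801300, 8561687 and 8989184 counts, so cKO replicate 3 was the deepest. That library was also the only male one, with Ddx3y at 101 CPM against at most 0.11 in the others. Hif1a itself, the targeted gene, stood at 716, 663, 530 and 552 CPM (log2 fold change 0.35, SE 0.087, adjusted p = 0.317 by edgeR's quasi-likelihood test). It was thus not lower in the libraries labelled cKO, but gene-level reads do not separate the floxed exons from the rest, so they check no label. Nkx2-5, whose locus holds Cre in the cKO embryos, stood at 44.3, 42.1, 55.9 and 64.95 CPM (log2 fold change -0.49, adjusted p = 0.153). The 13 cardiomyocyte markers, all detected, summed to between 42070 and 46230 CPM, so the defining markers of the labelled tissue were present in every library. The 10 erythroid markers did not sit level: they summed to 2839, 6867, 5361 and 6226 CPM, lowest in cKO replicate 2.

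Promoter sequences are shown for 1 member of each class, so that the start regions of 3 genes whose cKO libraries differed by over 2-fold (Twist1, Postn and Col9a1) can be read beside those of 2 abundant matrix genes that differed less (Col3a1 and Vcan). Each is the 250 bases before a RefSeq start site in GRCm38.p6, read 5′ to 3′ on the gene's strand, and none overlaps an annotated exon. Capitals mark the core of the hypoxia response element, ACGTG or GCGTG on either strand, the letters that HIF1 binds. The windows are Twist1 at chr12:33957421-33957670 (plus strand), Postn at chr3:54360857-54361106 (plus), Col9a1 at chr1:24177360-24177609 (plus), Col3a1 at chr1:45311288-45311537 (plus) and Vcan at chr13:89742513-89742762 (minus).
Twist1: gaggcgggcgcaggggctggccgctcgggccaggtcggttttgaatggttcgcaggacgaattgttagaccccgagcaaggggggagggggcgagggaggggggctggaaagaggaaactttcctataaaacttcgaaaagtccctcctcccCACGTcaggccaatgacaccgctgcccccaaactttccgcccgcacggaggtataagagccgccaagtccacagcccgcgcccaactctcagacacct
Postn: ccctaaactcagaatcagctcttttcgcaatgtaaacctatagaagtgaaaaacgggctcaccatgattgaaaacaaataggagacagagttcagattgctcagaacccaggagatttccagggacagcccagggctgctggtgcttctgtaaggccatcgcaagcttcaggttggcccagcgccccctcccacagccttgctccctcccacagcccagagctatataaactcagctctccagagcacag
Col9a1: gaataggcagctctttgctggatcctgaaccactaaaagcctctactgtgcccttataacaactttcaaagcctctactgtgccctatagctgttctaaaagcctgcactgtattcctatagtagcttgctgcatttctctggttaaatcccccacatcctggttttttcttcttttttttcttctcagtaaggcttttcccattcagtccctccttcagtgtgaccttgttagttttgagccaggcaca
Col3a1: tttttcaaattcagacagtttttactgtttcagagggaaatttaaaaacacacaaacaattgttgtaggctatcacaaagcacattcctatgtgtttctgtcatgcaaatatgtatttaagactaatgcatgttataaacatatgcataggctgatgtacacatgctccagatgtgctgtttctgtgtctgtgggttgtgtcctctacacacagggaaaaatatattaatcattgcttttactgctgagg
Vcan: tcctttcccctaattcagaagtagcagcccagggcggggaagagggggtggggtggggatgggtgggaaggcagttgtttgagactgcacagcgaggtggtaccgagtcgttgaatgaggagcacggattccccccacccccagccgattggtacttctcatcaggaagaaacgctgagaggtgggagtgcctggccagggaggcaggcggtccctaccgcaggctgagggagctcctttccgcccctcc
Among these 5 windows the core occurs in that of Twist1 alone. RefSeq windows matched 24 of the 36 members, with 29 windows in all, and 9 of the 29 (31.0%) held ACGTG or GCGTG on either strand, against 38.6% of the 32851 mouse windows. TATAAA, the TATA box, was present in 5 of 29 windows (17.2%, against 12.4% of all), among them Twist1, Postn and Col3a1. AACAAT, a core bound by SOX factors, was present in 4 (13.8%, against 9.42%), and CANNTG, the E-box bound by TWIST1 and other bHLH factors, in 14 (48.3%, against 66.2%). These are matches of letters only, the motifs may overlap, and no window is shown to be bound.

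Between cKO and control no member passed the test. With edgeR's quasi-likelihood test at an adjusted p of 0.05, 0 of 34 members were called, against 70 of 13711 genes (0.511%), of which 20 were higher (0.146%) and 50 lower (0.365%) in cKO. DESeq2 and limma-voom also called 0 members. At an unadjusted p under 0.05 there were 5 members, Col2a1, Acan, Col4a2, Col4a1 and Has2, among 956 genes in all. The median log2 fold change over the 34 members was -0.01 (16 positive), beside -0.0003 over all genes, and single members ran from -1.67 to 1.33. With 2 libraries a group and 2 residual degrees of freedom the smallest adjusted p of a member was 0.545, that of Col2a1.

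**Figure D1:**
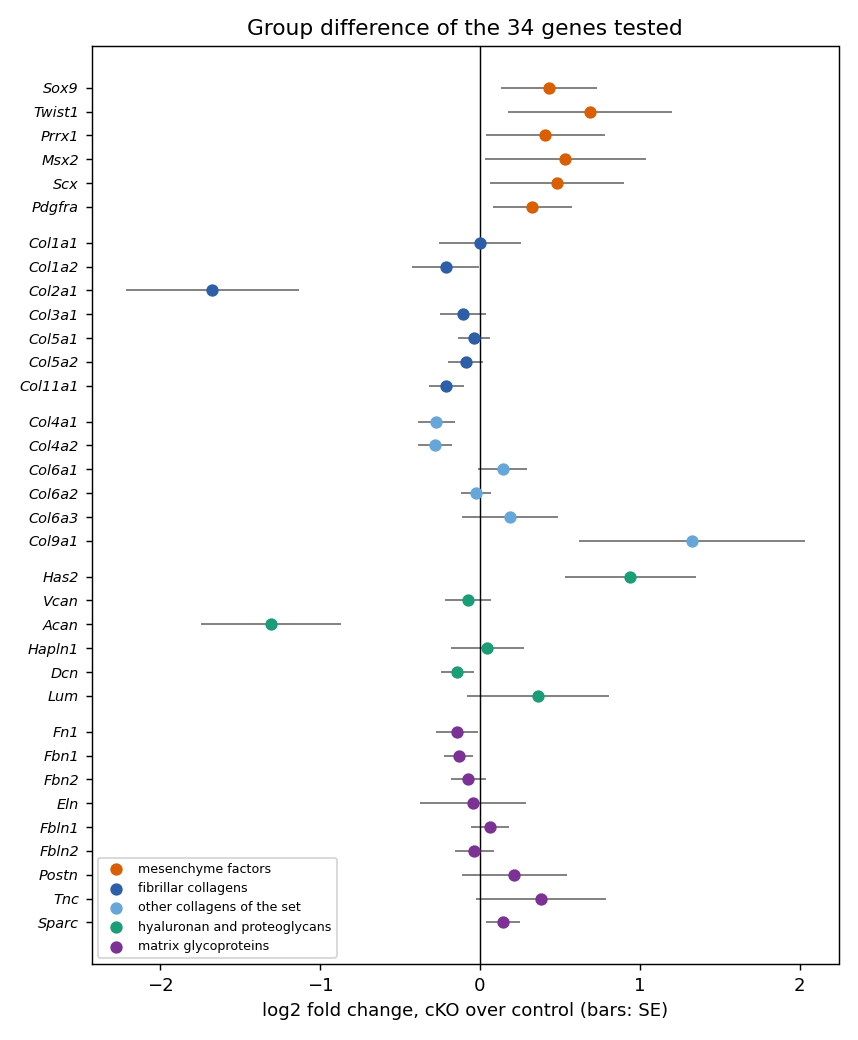
Log2 fold change of cKO over control with its standard error (horizontal axis) for the 34 members tested, grouped by class. Col9a1 at 1.33 and Col2a1 at -1.67 lie farthest out, with the widest bars, and no member passes an adjusted p of 0.05.

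Libraries of the same group differed too. Of the 34 tested, 11 stood over 2-fold higher in cKO replicate 3 than in cKO replicate 2, namely Col2a1, Col9a1, Twist1, Lum, Tnc, Msx2, Postn, Has2, Eln, Prrx1 and Col6a3, against 205 of all genes (1.50%), and 0 stood over 2-fold lower (all genes 0.649%). Between the control libraries 0 members differed by 2-fold on this scale in either direction (all genes 1.03% higher in replicate 3 and 1.24% lower). Against the controls, cKO replicate 3 was over 2-fold higher for 4 members, where 1.09% of all genes were. These are log2 ratios with a prior count of 2, and a pair of libraries gives no test. cKO replicate 3 was also the male and the deeper library of the pair, and neither the part of sex nor that of depth was tested. The median log2 ratio of cKO replicate 3 over replicate 2 was 0.33 (24 of 34 above 0), beside -0.0018 over all genes, 49.6% of which lay above 0. The controls were not level either, with a median of 0.24 for replicate 3 over replicate 2 (27 of 34 above 0), beside -0.0063 over all genes.

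**Figure D2:**
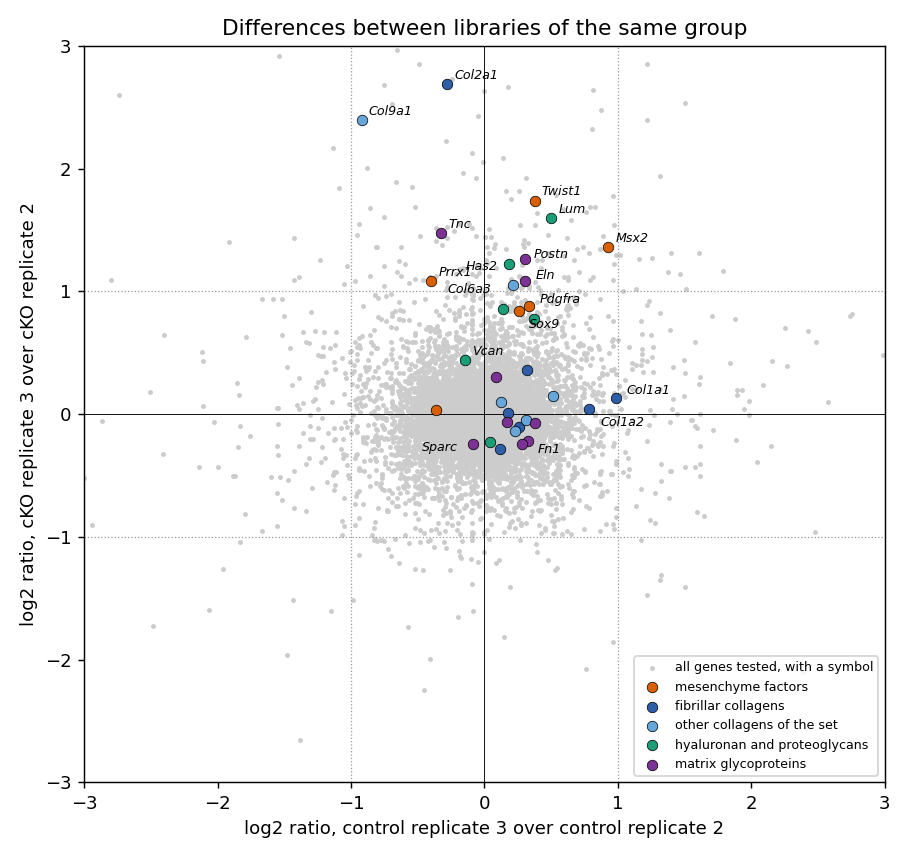
Log2 ratio of control replicate 3 over replicate 2 (horizontal) and of cKO replicate 3 over replicate 2 (vertical), with a prior count of 2, for the 34 members (coloured by class) and all tested genes that have a symbol (grey, 71 genes outside the axes). Dotted lines mark 2-fold: 11 members lie above the upper line and none lies beyond the vertical lines.

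The controls often lay between the cKO libraries. In 12 of the 36 members (Twist1, Prrx1, Msx1, Pdgfra, Col6a3, Vcan, Hapln1, Lum, Fbn2, Eln, Postn and Tnc) cKO replicate 2 was lowest, cKO replicate 3 highest and both controls between, an order held by 6.02% of all genes tested. The set did not share 1 order, however. The mesenchyme factors were highest in cKO replicate 3 in 7 of 8 genes, whereas 10 of the 13 collagens were highest in control replicate 3. Groups that did not overlap at all were found for 2 members higher in cKO, Scx and Has2, and 7 lower, Col2a1, Col11a1, Col4a1, Col4a2, Acan, Dcn and Fbn1. Those 9 of 34 stand beside a background of 38.2% of all genes (19.4% higher and 18.8% lower).

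The factors of cushion and valve mesenchyme were read at 10.8 CPM or less in every library, apart from Pdgfra. All 6 that were tested (of 8) had a positive log2 fold change, with a median of 0.46, beside 49.9% positive over all genes, but none passed the test. Without cKO replicate 3, 5 of the 6 were negative: Twist1 at -0.55, Msx2 at -0.41, Prrx1 at -0.30, Pdgfra at -0.20 and Sox9 at -0.096. Sox9, a transcription factor of cushion mesenchyme and of cartilage, stood at 5.97, 10.8, 5.79 and 6.95 CPM. It was highest in cKO replicate 3, 1.81 times cKO replicate 2 (95% exact binomial interval for counting error alone 1.35 to 2.46), and cKO replicate 2 lay between the controls (log2 fold change 0.43, SE 0.30, adjusted p = 0.805 by edgeR). Twist1, a bHLH factor of mesenchymal cells that have left an epithelium or endothelium, stood at 2.53, 8.84, 3.19 and 4.19 CPM. Only cKO replicate 3 was high, at 3.50 times cKO replicate 2 (interval 2.29 to 5.55), and the log2 fold change was 0.69 (SE 0.51, adjusted p = 0.821). Msx2, a homeobox factor that acts downstream of BMP signals, stood at 2.12, 5.73, 1.89 and 3.75 CPM. Both replicates numbered 3 were above both numbered 2, by 2.70 times in cKO (interval 1.68 to 4.52) and 1.98 times in controls (1.07 to 3.85).

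Its relative Msx1 was read only 3, 48, 4 and 9 times, so that cKO replicate 3 was 7.95 times cKO replicate 2 with a wide counting interval (2.56 to 39.9). Penk, which encodes a precursor of opioid peptides and is found in embryonic mesenchyme, was read 2, 7, 3 and 2 times, which shows no order. Prrx1, a homeobox factor of mesenchyme, stood at 3.84, 8.34, 5.44 and 4.08 CPM. Pdgfra, a receptor for platelet-derived growth factors carried by mesenchymal cells, was the most abundant of the class, also per kilobase of exon, at 36.2, 66.7, 36.9 and 46.4 CPM, with cKO replicate 3 above the rest (1.84 times cKO replicate 2, interval 1.64 to 2.08). Scx, a bHLH factor of tendon and valve cells, was read only 14, 29, 10 and 8 times. At 1.42, 1.46, 1.18 and 0.88 CPM its cKO libraries lay together, both above the controls (log2 fold change 0.48, SE 0.42, adjusted p = 0.859 by edgeR). Its cKO replicate 3 was 1.03 times cKO replicate 2, with a wide counting interval (0.53 to 2.11).

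Among the fibrillar collagens, Col2a1 stood apart from the other 6. It encodes the main collagen of cartilage, is also expressed transiently in embryonic heart, and lies on the minus strand of GRCm38 chromosome 15 at positions 97975602 to 98004695. It stood at 5.46, 36.1, 78.85 and 64.95 CPM, both cKO libraries below both controls. The cKO libraries differed by 6.60 times (interval 5.003 to 8.88), while control replicate 3 was at 0.82 times control replicate 2. The log2 fold change was -1.67 (SE 0.54, unadjusted p = 0.0148, adjusted p = 0.545 by edgeR). With only 1 of the cKO libraries in the fit Col2a1 was called lower: at -0.99 without cKO replicate 2 (adjusted p = 0.00521), where 69 of 14060 genes were called lower (0.491%), and at -3.71 without cKO replicate 3 (adjusted p = 4.48e-05; 63 of 14040 lower, 0.449%). In both fits the lone cKO library is assumed to vary as the controls do. When a control was left out instead, 0 members were called. Of all genes 0.141% were then higher and 0.239% lower with replicate 2 left out, and 0.106% and 0.169% with replicate 3 left out.

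None of the 7 fibrillar collagens had a positive log2 fold change, and their median was -0.10, but Col1a1 was so near 0 that it was positive under limma-voom (0.080), upper-quartile scaling (0.021), no filter (0.0040) and the replicate block (0.074). Without control replicate 3, 4 of the 7 were positive: Col1a1 at 0.58, Col1a2 at 0.23, Col5a1 at 0.0997 and Col3a1 at 0.065. Col1a1 and Col1a2, the chains of collagen I, spread between the controls instead of the cKO libraries. Col1a1 stood at 278, 304, 195 and 387 CPM, with the cKO libraries close together between the controls, which differed by 1.98 times (interval 1.87 to 2.10), and its log2 fold change was -0.0005 (SE 0.25, adjusted p = 1.0 by edgeR). Col1a2 did the same at 243, 249, 209 and 361 CPM, the controls differing by 1.72 times (1.63 to 1.83) and the log2 fold change being -0.21 (SE 0.21). The 8 immune markers had a median log2 ratio of 1.40 for control replicate 3 over control replicate 2. Their summed level differed less, at 90.9 CPM in control replicate 2 and 105 CPM in control replicate 3. The part of immune cells in the spread of Col1a1 and Col1a2 was not tested. Col3a1, Col5a1, Col5a2 and Col11a1, which form or line the same fibrils, had log2 fold changes between -0.21 (Col11a1) and -0.04 (Col5a1). Col3a1 was the most abundant of these 4, also per kilobase, at 369, 474, 403 and 503 CPM, and Col11a1 the most even between cKO libraries at 23.3, 23.4, 25.3 and 28.7 CPM.

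Among the other collagens, neither basement membrane chain passed the test, and the cartilage chain Col9a1 was uneven between the cKO libraries. Col4a1 stood at 778.5, 753, 825 and 1024 CPM (log2 fold change -0.27, SE 0.11, unadjusted p = 0.0435, adjusted p = 0.702 by edgeR). Col4a2, whose product joins that of Col4a1 in the same trimer, stood at 493, 449, 527 and 617 CPM (log2 fold change -0.28, SE 0.10, unadjusted p = 0.0267, adjusted p = 0.638). Both cKO libraries lay below both controls for either gene, but control replicate 2 was only 1.06 times cKO replicate 2 for Col4a1 and 1.07 times for Col4a2. The genes lie head to head on chromosome 8 and their exons share 22 bases, so without strand a few reads could be counted for either.

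Col9a1, a collagen that sits on the surface of cartilage fibrils, stood at 1.62, 9.24, 3.07 and 1.54 CPM. Only cKO replicate 3 was high, at 5.71 times cKO replicate 2 (interval 3.42 to 10.2), while control replicate 3 was at 0.50 times control replicate 2 (0.24 to 0.998). Its log2 fold change was 1.33 (SE 0.71, adjusted p = 0.757 by edgeR), opposite in sign to that of Col2a1, the fibril it coats. The chains of collagen VI, a beaded microfibril around mesenchymal cells, differed in where they spread. Col6a1 stood at 49.5, 54.75, 38.9 and 55.7 CPM, with control replicate 3 at 1.43 times control replicate 2 (interval 1.24 to 1.65). Col6a2 was the most even of the 3 at 59.0, 62.99, 59.6 and 64.8 CPM. Col6a3, at 9.31, 19.4, 12.1 and 14.0 CPM, was 2.09 times higher in cKO replicate 3 than in cKO replicate 2.

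Of the genes of hyaluronan and proteoglycans, Has2 stood out upward in 1 library and Acan lay low in both cKO libraries. Has2, the synthase that makes the hyaluronan of cardiac jelly, stood at 3.74, 8.94, 3.19 and 3.64 CPM. Only cKO replicate 3 was well above the controls, at 2.39 times cKO replicate 2 (interval 1.67 to 3.50), and the log2 fold change was 0.94 (SE 0.41, unadjusted p = 0.0499, adjusted p = 0.708 by edgeR). Acan, the large aggregating proteoglycan of cartilage, was read only 6, 23, 17 and 24 times, or 0.61, 1.16, 2.01 and 2.65 CPM. Both cKO libraries lay below both controls (log2 fold change -1.31, SE 0.44, unadjusted p = 0.017, adjusted p = 0.571). Vcan, the proteoglycan that binds hyaluronan in the cushions and far more abundant than Acan, stood at 831, 1128, 1084 and 978 CPM, with the controls between the cKO libraries (log2 fold change -0.07, SE 0.14, adjusted p = 0.942).

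Hapln1, the link protein that fastens versican to hyaluronan, likewise had the controls between the cKO libraries, at 64.8, 117, 84.9 and 93.5 CPM. Lum, a small leucine-rich proteoglycan of collagen fibrils, stood at 5.26, 16.2, 7.21 and 10.3 CPM and was 3.08 times higher in cKO replicate 3 than in cKO replicate 2 (interval 2.30 to 4.22), with a log2 fold change of 0.36 (SE 0.44, adjusted p = 0.896 by edgeR). Dcn, of the same family and its neighbour on chromosome 10, had another order, at 66.5, 56.8, 66.7 and 68.6 CPM.

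Among the 9 glycoproteins, Postn, Tnc and Eln differed by over 2-fold between the cKO libraries and the other 6 did not. Fn1, the fibronectin on which cushion cells migrate, stood at 1994, 1715, 1815 and 2278 CPM, the groups overlapping (log2 fold change -0.14, SE 0.13, adjusted p = 0.868 by edgeR). Sparc, a collagen-binding matricellular protein, stood at 1193, 1010, 1026 and 965 CPM, highest in cKO replicate 2 (log2 fold change 0.15, SE 0.11, adjusted p = 0.818). Fbn1 and Fbn2, the fibrillins, and Fbln1 and Fbln2, the fibulins, had log2 fold changes between -0.13 (Fbn1) and 0.06 (Fbln1).

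Postn, the periostin of maturing cushions and fibroblasts, was the only member at or above 100 CPM whose cKO libraries differed by over 2-fold. It stood at 88.2, 211.5, 117 and 144 CPM, the controls between the cKO libraries, which differed by 2.40 times (interval 2.23 to 2.58), and its log2 fold change was 0.22 (SE 0.33, adjusted p = 0.921 by edgeR). Tnc, tenascin C, a matricellular protein of remodelling tissue, also had the controls between the cKO libraries, at 6.58, 18.5, 11.2 and 8.93 CPM. Its cKO libraries were 2.82 times apart (interval 2.16 to 3.73), and the log2 fold change was 0.38 (SE 0.40). Eln, elastin, likewise ran at 5.26, 11.4, 7.92 and 9.81 CPM. Without cKO replicate 2 the fit held cKO replicate 3, the male library, as its only cKO library. Group, sex and single embryo cannot be told apart there, and that library is assumed to vary as the controls do. The log2 fold changes were then 2.01 for Col9a1, 1.39 for Has2 and 0.70 for Postn, and 22 of 35 members were positive. Without cKO replicate 3, 8 of 34 members were positive, and the log2 fold changes of Postn and Col9a1 were negative, at -0.56 and -0.50.

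**Figure D3:**
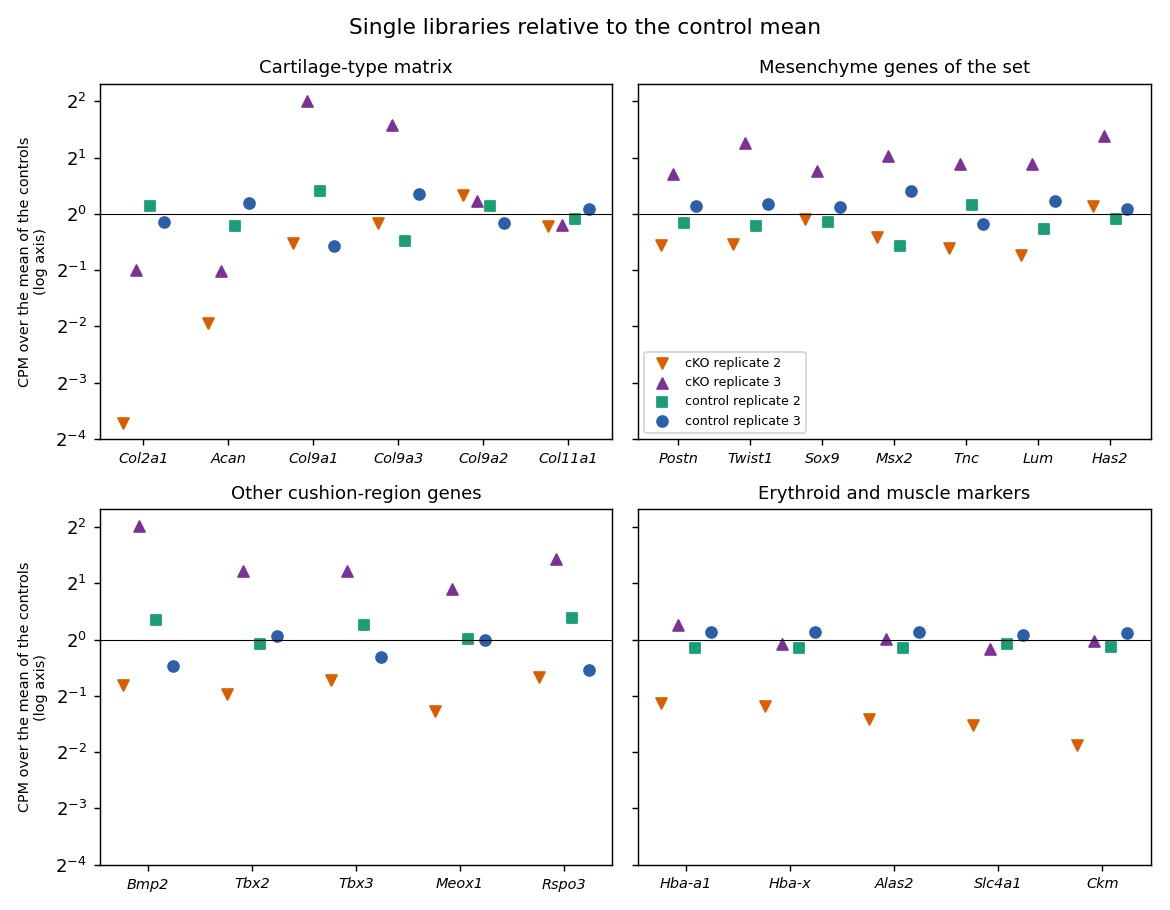
CPM in each library divided by the mean of the controls (log axis, powers of 2) for cartilage-type matrix genes, mesenchyme genes of the set, other cushion-region genes, and erythroid and muscle markers. The other cushion-region genes (Bmp2, Tbx2, Tbx3, Meox1 and Rspo3) were picked after their values were seen. Each was over 2-fold higher in cKO replicate 3 than in cKO replicate 2, unlike most genes of their lists. Col2a1 and Acan lie below the line in both cKO libraries, Postn, Twist1 and Tnc above it in cKO replicate 3 and below it in cKO replicate 2, and the erythroid markers well below it in cKO replicate 2 alone.

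The spread between the cKO libraries was largest among scarce members but was not limited to them. Of 10 members with a mean under 10 CPM, 7 were over 2-fold higher in cKO replicate 3, against 4.34% of the 3897 genes at such levels. From 10 to 100 CPM it was 3 of 9 (Col2a1, Col6a3 and Tnc), against 0.339% of 7669 genes, and from 100 CPM it was 1 of 15 (Postn), against 0.466% of 2145 genes. These level classes were chosen after the values were seen.

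Levels of different genes can be set beside each other per kilobase of exon. On that scale (CPM per kilobase of all annotated exons, mean of 4 libraries) Sparc was highest at 277, followed by Fn1 at 167, Col4a1 at 113, Col4a2 at 78.8 and Vcan at 69.5. Col3a1 at 44.6 and Col1a1 at 44.3 came next. The cartilage-type genes were low, with Col2a1 at 5.01, Sox9 at 1.78, Col9a1 at 0.76 and Acan at 0.21, and Penk was last at 0.17. Of the 35 pairs of neighbours in this order, 29 overlapped in their range over the 4 libraries. The 6 that did not were Sparc and Fn1, Fn1 and Col4a1, Col4a1 and Col4a2, Vcan and Col3a1, Fbn1 and Col5a1, and Dcn and Col6a2. The exon length counts every annotated exon, which understates genes with long rare transcripts.

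Ratios on this scale were taken between chains of 1 collagen and between genes whose products share a fibril or lie side by side. Col4a1 to Col4a2 was 1.40, 1.49, 1.39 and 1.47, so that the highest was 1.07 times the lowest. Col1a1 to Col1a2 was 2.17, 2.31, 1.76 and 2.03, a range of 1.31 times, although both chains differed between controls. Col6a3 to Col6a1, chains of collagen VI, was 0.069, 0.13, 0.114 and 0.092, a range of 1.89 times. Col9a1 to Col2a1, which share the cartilage fibril, was 0.54 and 0.47 in the cKO libraries and 0.07 and 0.04 in the controls. That ratio reuses the levels of Col2a1, low in both cKO libraries, and of Col9a1, high in cKO replicate 3 alone. Col9a1 was read only 16 times in cKO replicate 2 and 26 and 14 times in control replicates 2 and 3. Dcn to Lum was 5.30, 1.47, 3.88 and 2.80, a range of 3.61 times.

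Other matrix and cushion genes were read from lists that hold none of the members. None passed among 23 other collagens, 15 other proteoglycans and hyaluronan enzymes, 32 other glycoproteins, 17 proteases and inhibitors, 29 genes of TGF-beta and BMP signalling and 20 other mesenchymal transcription factors, and the medians of these 6 lists lay between -0.03 and 0.02 on the log2 scale. Over 2-fold higher in cKO replicate 3 than in cKO replicate 2 were 2 of the 23 collagens and 2 of the 15 proteoglycans and hyaluronan enzymes. Of the 32 glycoproteins and the 17 proteases and inhibitors 0 were, and 1 of each was over 2-fold lower. The median log2 ratios of these 4 lists were -0.18, 0.12, -0.03 and -0.06. Among the 29 signalling genes 1 was over 2-fold higher, and among the 20 transcription factors 3 were, with medians of 0.04 and 0.03. Of all genes 1.50% were over 2-fold higher. Of the 4 signalling genes and transcription factors, 3 picked after their values were seen are given here. Bmp2, a ligand that induces cushion formation, stood at 1.21, 8.69, 2.72 and 1.54 CPM (cKO libraries 7.16 times apart, interval 3.995 to 14.1). Tbx2, a repressor of chamber genes in the atrioventricular canal, stood at 1.72, 7.84, 3.19 and 3.53 CPM, and its relative Tbx3 at 1.92, 7.38, 3.78 and 2.54 CPM; none of the 3 was called.

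Markers of other cells and tissues were read in the same libraries. Like the 11 members, all 10 erythroid markers were over 2-fold higher in cKO replicate 3 than in replicate 2 (median log2 ratio 1.36). Against the controls, the erythroid median was low in cKO replicate 2 alone, with log2 ratios of -1.055 there and 0.28 in replicate 3. Of the 11 members, Col9a1, Has2, Twist1 and Msx2 were over 2-fold above the controls in cKO replicate 3 (1.998, 1.35, 1.235 and 1.05). In cKO replicate 2 these genes lay nearer the controls, at -0.40, 0.13, -0.50 and -0.31. Col2a1 and Eln instead lay farther from the controls in cKO replicate 2 (-3.67 and -0.73). The part of erythroid cells in the spread of the members was not tested. Of 18 cartilage markers 9 could be tested and 0 were called; Snorc and Ucma were at 0 in every library. Their median log2 ratio of cKO replicate 3 over replicate 2 was -0.10, with 4 of 9 above 0. Of the partner chains of Col9a1, Col9a3 stood at 1.62 and 5.43 CPM in cKO and at most 2.32 CPM in the controls, the only tested marker of the list over 2-fold higher in cKO replicate 3, whereas Col9a2 stood at 12.95, 12.1, 11.35 and 9.15 CPM. Skeletal muscle gave 1 tested marker of 6, Ckm, also a gene of heart muscle, at 8.19, 29.3, 27.3 and 32.75 CPM, while Myf5 and Pax3 were at 0. Among 12 epicardial markers 1 was lower in cKO, Krt19, a keratin of the epicardium, at 25.4, 17.9, 41.4 and 45.4 CPM (log2 fold change -1.03, adjusted p = 0.0347 by edgeR), and the list had a median of -0.21. The 12 endothelial and endocardial markers gave 0 calls and a median of -0.22, with 0 positive, and the 11 tested fibroblast markers gave 0 calls and a median of 0.03. The tested markers of atria (7), outflow tract and smooth muscle (7), neural crest and nerve (3) and liver and foregut (1) gave 0 calls. How far the share of these cells bears on Col2a1, Col4a1 or Col4a2 was not tested.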

How the data were processed

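Poly(A) RNA of 4 ventricle samples (500 ng each) was read as 75-base single reads from a kit that does not mark strand, per the labels' protocols. The submitters' processing notes name the build GRCm38 with RSEM 1.2.3, cutadapt 1.3 and CASAVA 1.8.2. Annotation and aligner: not given in the sources used here. Per those notes the deposited values are RSEM expected counts per gene, which split reads between similar genes. They were rounded to whole numbers and tested with edgeR 4.0.16 (R 4.3.3; TMM scaling, filterByExpr by group with a minimum count of 10 and total of 15, quasi-likelihood F test, Benjamini-Hochberg adjustment over all genes tested, threshold 0.05), after the code was tested on simulated data. Standard errors are the log2 fold change over the square root of F. Within-group ratios used a prior count of 2. Exon lengths and positions are from GENCODE M21 (GRCm38).

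The labels describe individual embryos of 1 litter, so p-values measure the spread between 4 siblings. The members and gene lists were chosen with earlier results of these data known. Values in every library were given, by rule, for members past the threshold, those with groups apart and a log2 fold change of at least 0.5, the 8 with the largest ratio between cKO libraries and 4 between controls, the 5 highest per kilobase, and Col2a1, Sox9 and Postn; others were added for comparison. DESeq2 1.42.0, limma 3.58.1 (voom), other scalings and filters, a replicate block and leaving out each library were alternatives. A list of other matrix genes is not reported here.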

Additional observations from a re-analysis of the deposited data

How the results depend on the processing

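Leaving out each library in turn gave between 39 and 141 genes called over all genes, beside 70 with all 4 libraries, the most (141) when cKO replicate 2 was dropped and the fewest (39) when control replicate 3 was. Each such fit holds 1 library in a group, which is assumed to vary as the other group does. The members' median log2 fold change ran from -0.22 without cKO replicate 3 to 0.17 without control replicate 3. In these fits the direction changed for 24 of the 34 members. Among mesenchyme factors the range was -0.55 to 1.26 for Twist1, -0.096 to 0.76 for Sox9, -0.30 to 0.81 for Prrx1, -0.41 to 1.10 for Msx2 and -0.20 to 0.68 for Pdgfra. Among collagens it was -0.41 to 0.58 for Col1a1, -0.55 to 0.23 for Col1a2, -0.30 to 0.065 for Col3a1, -0.16 to 0.0997 for Col5a1, -0.23 to 0.048 for Col5a2, -0.092 to 0.43 for Col6a1, -0.086 to 0.036 for Col6a2, -0.49 to 0.58 for Col6a3 and -0.50 to 2.01 for Col9a1. Among the rest it was -0.31 to 0.13 for Vcan, -0.46 to 0.40 for Hapln1, -0.73 to 0.89 for Lum, -0.30 to 0.032 for Fn1, -0.23 to 0.070 for Fbn2, -0.75 to 0.355 for Eln, -0.069 to 0.21 for Fbln1, -0.21 to 0.17 for Fbln2, -0.56 to 0.70 for Postn and -0.61 to 0.88 for Tnc. It did not change for Col2a1, Acan, Col4a1, Col4a2, Col11a1, Dcn and Fbn1, which were lower in cKO. Nor did it change for Has2, Scx and Sparc, which were higher. For all of these but Sparc the groups did not overlap, so leaving out a library could hardly reverse the direction.

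DESeq2 called 96 genes and limma-voom 73, and neither called a member. The direction of Col1a1, near 0, became positive under limma-voom (0.080), upper-quartile scaling (0.021), no filter on low counts (0.0040) and the replicate block (0.074), and that of Hapln1 negative under limma-voom (-0.0032) and the block (-0.0125). The replicate block, with 75 genes and 0 members called, rests on numbers that the labels tie to no shared source (correlation of deviations 0.11 over 2 pairs). Members over 2-fold higher in cKO replicate 3 numbered 7 with a minimum mean of 5 CPM, which leaves 28 members, and 12 with no filter, alternatives chosen after seeing the data. Causes were not tested beyond the fewer genes or samples of each alternative. Depth limits Msx1, Penk, Scx and Acan, read under 50 times in every library.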
